A study of Mus musculus with 6 samples.

Results

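Granule cells of the cerebellum and the genes that pattern the hindbrain were followed through 10 genes: Gabra6, Cbln1, Cbln3, Fat2, Cdh15, Neurod1, En2, Zic1, Zic2 and Zic4. They were taken from the 18193 genes that the array annotates on probe sets with a single symbol, a probe set being the set of short oligonucleotides that reads out a transcript. All of their probe sets were used, with no filter on dim signals, which gave 17 of the 45037 that are not Affymetrix controls. Cbln1 had 3 probe sets, Gabra6, Cbln3, Zic1, Zic4 and Neurod1 had 2 each, and the others had 1 each. Where a gene has several, they are told apart by brightness, which ranks them by their mean log2 signal over the 6 arrays.

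The arrays held total brain RNA of 4 mice without melanotransferrin (MTf -/-, labelled C57BL/6 - Lucy, a name the sources used here do not explain) and of 2 wild-type mice (MTf +/+, C57BL/6). All 6 were females of 123 days from a shared litter, with 1 Mouse 430 2.0 array for each mouse. Melanotransferrin belongs to the transferrins, binds iron and sits in the cell membrane, and the comparison of knockout and wild type asks which brain transcripts differ when it is missing. The sources used here do not give the allele's construction, the dissection or any batch, and the array numbers below follow the order of deposit and only name a mouse. Each array is a separate animal, so the spread between arrays holds animal and technical differences together.

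Cerebellar granule cells are small excitatory neurons, the most numerous neurons of the brain, whose parallel fibres contact the Purkinje cells. They arise from precursors in the rhombic lip, a strip of the embryonic hindbrain, and pass through a stage marked by proneural transcription factors and Zic zinc finger proteins before they switch on genes of the mature synapse. Some of these genes are known in brain mainly from granule cells, whereas others are also active in the hippocampus, thalamus, midbrain, meninges or muscle.

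Annotated starts were matched to RefSeq windows on GRCm38.p6 for 7 of the 10 genes: Gabra6, Cbln3, Fat2, Cdh15, Neurod1, Zic1 and Zic4. The 250 bases before the start are shown for 4 genes, chosen to set low against partly kept signals on the array that stood apart: Gabra6 (chr11:42321073-42321322) and Cbln3 (chr14:55884257-55884506), whose signal nearly vanished in 1 mouse, and Neurod1 (chr2:79456637-79456886) and Zic1 (chr9:91365769-91366018), which kept part of it there. Zic4 and Cdh15, which kept most of their signal, are not printed. All 4 windows lie on the minus strand and are written 5′ to 3′ along the gene, with CG dinucleotides in capitals.
Gabra6: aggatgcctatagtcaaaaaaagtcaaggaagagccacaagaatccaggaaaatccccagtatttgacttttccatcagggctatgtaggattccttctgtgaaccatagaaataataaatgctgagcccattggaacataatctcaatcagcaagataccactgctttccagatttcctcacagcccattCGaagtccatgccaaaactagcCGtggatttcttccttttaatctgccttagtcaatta
Cbln3: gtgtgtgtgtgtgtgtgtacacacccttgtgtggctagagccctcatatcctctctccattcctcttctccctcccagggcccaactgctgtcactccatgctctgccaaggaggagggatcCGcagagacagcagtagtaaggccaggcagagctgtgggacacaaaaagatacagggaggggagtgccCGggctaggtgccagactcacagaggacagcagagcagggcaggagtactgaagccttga
Neurod1: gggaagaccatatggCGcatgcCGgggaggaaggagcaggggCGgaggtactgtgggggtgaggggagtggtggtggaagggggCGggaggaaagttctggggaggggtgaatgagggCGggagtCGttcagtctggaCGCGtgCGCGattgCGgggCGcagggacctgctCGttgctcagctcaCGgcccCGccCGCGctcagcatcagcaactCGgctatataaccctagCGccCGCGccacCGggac
Zic1: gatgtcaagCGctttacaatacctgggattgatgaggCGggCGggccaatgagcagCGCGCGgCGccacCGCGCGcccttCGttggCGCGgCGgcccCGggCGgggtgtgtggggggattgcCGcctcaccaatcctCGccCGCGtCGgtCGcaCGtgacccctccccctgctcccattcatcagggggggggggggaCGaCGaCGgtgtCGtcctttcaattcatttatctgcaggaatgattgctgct

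The Gabra6 and Cbln3 windows held 2 CG each, a number that 29.0% of all 32851 RefSeq windows of the same length did not exceed. The Zic1 window held 27 CG, reached by 8.56% of all windows, and the Neurod1 window 22, reached by 14.8%. Among the windows that are not printed, Fat2 had 3 CG, Zic4 had 4 and Cdh15 had 5, so a low CG number was shared by genes that behaved differently on the arrays. The Fat2 and Zic4 windows lie inside the annotated genes, before an internal transcript start. For Fat2 that start is 55312257, in a minus-strand gene that reaches 55337505. The E-box letters CAGCTG and CAGATG, searched on both strands (CAGCTG reads the same on both), were in 0 of the 7 windows and in 25.5% of all windows. TATAAA was in 0 of the 7 and in 12.4% of all windows. The starts used for the Zic1 and Zic4 windows, which point away from each other on chromosome 9, lie 3204 bases apart. The annotated Zic4 gene itself begins earlier, at 91365631, inside the Zic1 gene, which ends at 91365768.

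Signals of the whole series are on a linear scale, and as deposited their trimmed mean was equal on every array. Median signals were 238.2 to 278.3 on the knockout arrays and 192.5 and 240.3 on wild type 1 and wild type 2. Wild type 1 stood apart, with 24.5% of its probe sets below 49.6, the 20th percentile of the table, against 17.6% to 20.2% on the other arrays. Knockout 2 stood apart for the genes described here. The labels do not say which parts of the brain entered each sample. Whether cerebellum was left out of the knockout 2 sample was not tested, and every share and every fold change with that array holds for the tissue as it was sampled. The comparison of knockout and wild type is given with and without knockout 2. Transcripts are compared in bulk brain, where fewer cells of a type and less RNA per cell cannot be told apart.

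Knockout 2 had the lowest reading of the 6 arrays on 15 of the 17 probe sets, against 16.4% of all probe sets. It lay over 2-fold below the lowest of the other arrays on 13 of them, against 0.546% of all, and over 4-fold below on 8, in 5 genes, on the log2 scale with 49.6 added. Over all genes this was true of 32 probe sets, or 0.0711%, so that 8 of those 32 belonged to Gabra6, Cbln1, Cbln3, En2 and Fat2. On the other knockouts and wild type 2 between 1 and 3 probe sets lay that far below the rest, and on wild type 1 there were 38, with 0 of the 17 among them. These values describe single arrays and carry no test.

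**Figure D1:**
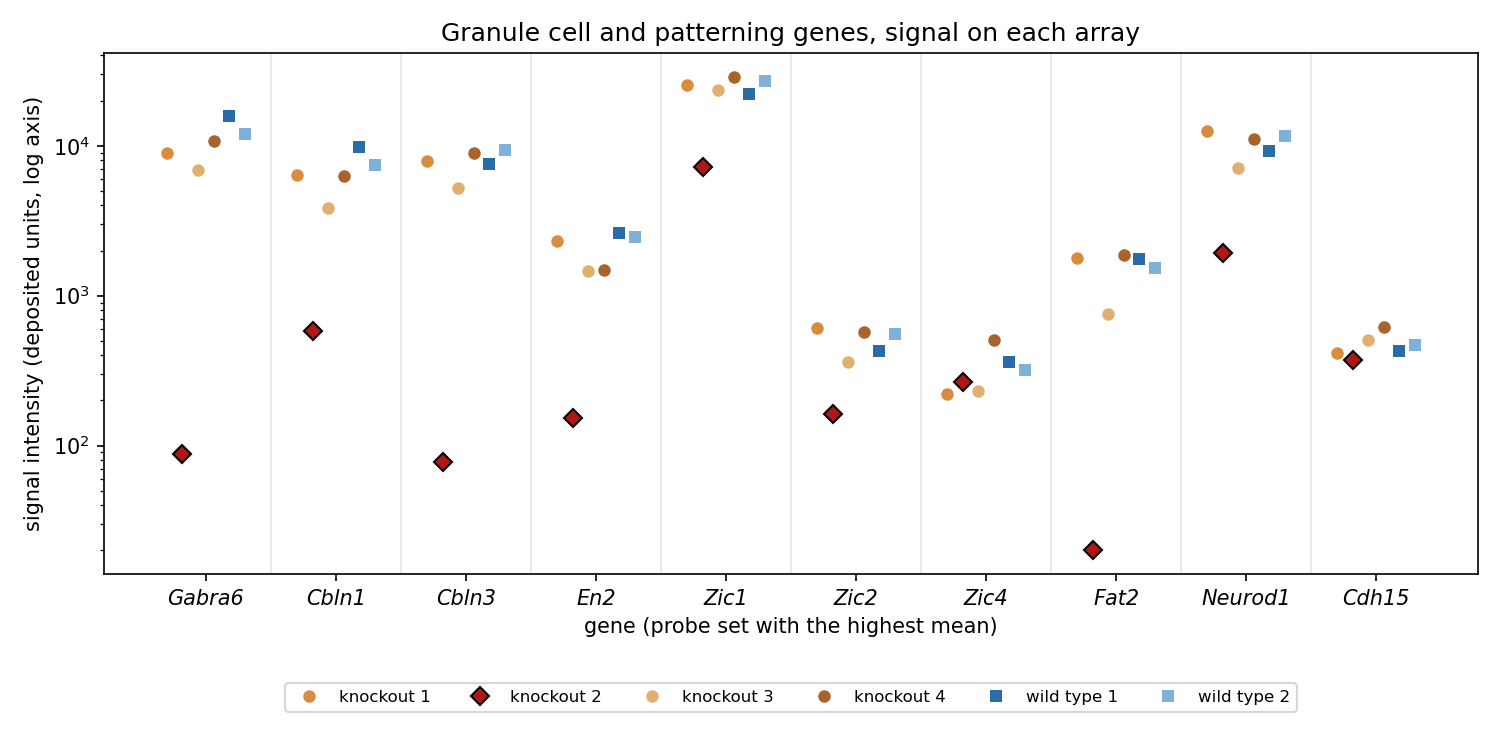
Signal intensity (log axis) of the brightest probe set of each of the 10 genes on every array, knockouts as circles and a diamond for knockout 2, wild types as squares. Knockout 2 lies far below the other 5 arrays for Gabra6, Cbln3 and Fat2, less far for Zic1 and Neurod1, and beside them for Zic4 and Cdh15.

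Among the synaptic genes of the mature granule cell, Gabra6 and the brighter Cbln3 probe set had wider gaps in knockout 2 than Cbln1. Gabra6 encodes the α6 subunit of the GABA-A receptor, known for tonic inhibition of granule cells. Its brighter probe set read 8913, 87.6, 6938 and 10704 in knockouts 1 to 4, against 15711 and 12020 in wild types 1 and 2. Knockout 2 thus held 0.818% of the median of the other 5 arrays, while both wild types were above every knockout. The dimmer probe set read 1454, 20.4, 1042 and 1628 in the knockouts, against 2451 and 1411 in the wild types. It repeated the gap in knockout 2, at 1.40% of the median of the others, but here the groups overlapped. On knockout 2 the brighter probe set ranked at percentile 28.4 of its own array and the dimmer at percentile 11.3, among dim probe sets, where background limits how low a share can be read.

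Cbln3 encodes a cerebellin, a secreted C1q-related protein of granule cells that needs Cbln1 for its release. The brighter Cbln3 probe set read 7896, 77.8, 5210 and 8913 in the knockouts, against 7581 and 9323 in the wild types. Knockout 2 held 0.985% of the median of the others, and the groups overlapped. The dimmer one read 1012, 100.3, 692.1 and 1334 in the knockouts, against 1852 and 1119 in the wild types. Its share in knockout 2, 8.96%, was larger, although the reading in knockout 2, at percentile 30.9 of the array, was close to that of the brighter probe set, at percentile 26.3.

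Cbln1 encodes the cerebellin that bridges presynaptic neurexin and the glutamate receptor δ2 at synapses of parallel fibres, and it is also known outside the cerebellum. Its brightest probe set read 6333, 584.3, 3817 and 6271 in the knockouts, against 9791 and 7394 in the wild types. The middle one read 5526, 780.5, 3838 and 5849 in the knockouts, against 9973 and 6550 in the wild types. On both, knockout and wild type did not overlap, and wild type 1 was highest. The dimmest read 3188, 536.5, 2185 and 3484 in the knockouts, against 4809 and 3099 in the wild types, with overlap. Cbln1 kept more of its signal in knockout 2 than Gabra6 or the brighter Cbln3 probe set, 9.23%, 13.3% and 16.8% from brightest to dimmest. These readings lay at percentiles 65.3 to 71.3 of the array, well inside its measured range.

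The adhesion genes parted ways. Fat2, a giant protocadherin known from granule cell parallel fibres, read 1794, 20, 758.2 and 1861 in the knockouts, against 1750 and 1525 in the wild types. Knockout 2 held 1.14% of the median of the others, at percentile 11.1 of its array, and knockout 3 read below the remaining 4. Cdh15, or M-cadherin, best known from muscle and described in cerebellum too, read 416.6, 371.3, 502.5 and 615.8 in the knockouts, against 426.1 and 465.9 in the wild types. Knockout 2 was again the lowest, but it held 79.7% of the median of the others and lay near knockout 1. The reading in knockout 2 ranked at percentile 58.8 of its array. The 5 muscle markers summed to 2090 in knockout 2, against 1597 to 2260 in the other knockouts and 1299 and 1409 in the wild types. Most of each sum was Acta1, skeletal muscle actin, at 1035 to 1565 over the 6 arrays, while Ckm and Myod1, which mark muscle fibres and their precursors, were at most 398.2 and 246. The part of muscle in the Cdh15 signal was not tested.

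The transcription factors ranged widely in the share kept by knockout 2, from 6.62% for En2 to 123% for the dimmer Zic4 probe set. Neurod1, a basic helix-loop-helix factor of maturing granule cells that is also active in the hippocampal dentate gyrus and the pituitary, read 12444, 1931, 7068 and 11063 in the knockouts on its brighter probe set, against 9273 and 11627 in the wild types. The dimmer probe set read 7467, 1168, 3807 and 6438 in the knockouts, against 3183 and 5730 in the wild types. Knockout 2 held 17.5% and 20.4% of the median of the others. The probe sets differed in wild type 1, which was the lowest of the other 5 arrays on the dimmer but read above knockout 3 on the brighter.

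En2, the engrailed homeobox gene that patterns midbrain and cerebellum, read 2311, 152.9, 1452 and 1484 in the knockouts, against 2618 and 2477 in the wild types. All knockouts lay below both wild types, and knockout 2 held 6.62% of the median of the others at percentile 39.8 of its array.

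The Zic genes encode zinc finger factors of granule cell precursors, dorsal midline tissue and meninges. The brighter Zic1 probe set read 25396, 7234, 23464 and 28860 in the knockouts, against 22152 and 27117 in the wild types. The dimmer read 12480, 2892, 7797 and 11234 in the knockouts, against 12158 and 12496 in the wild types. Knockout 2 held 28.5% and 23.8% of the median of the others, and its brighter reading ranked at percentile 95.6 of the array, so a strong Zic1 signal was left there. Zic2 read 608.7, 162.6, 359.7 and 573.7 in the knockouts, against 428.1 and 555 in the wild types, with 29.3% left in knockout 2. That reading ranked at percentile 41.3 of the array, far dimmer than Zic1.

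Zic4, the neighbour of Zic1 but far dimmer on the arrays, did not show its gap. The brighter probe set read 221.3, 267.4, 231.3 and 503 in the knockouts, against 358.7 and 321.1 in the wild types. The dimmer, the only 1 of the 17 that a 40% dim filter would have removed, read 12.1, 88.8, 79.7 and 18.2 in the knockouts, against 72.3 and 138.3 in the wild types. Knockout 2 held 83.3% and 123% of the median of the others and was not the lowest array on either. On knockout 2 the brighter probe set ranked at percentile 52.4 of the array, against 95.6 for the brighter Zic1 probe set. The genes were thus compared at unlike brightness. The dimmer readings spread over 11.4-fold among the other 5 arrays, where the remaining 16 probe sets spread over at most 2.68-fold, so it gives little information on Zic4.

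**Figure D2:**
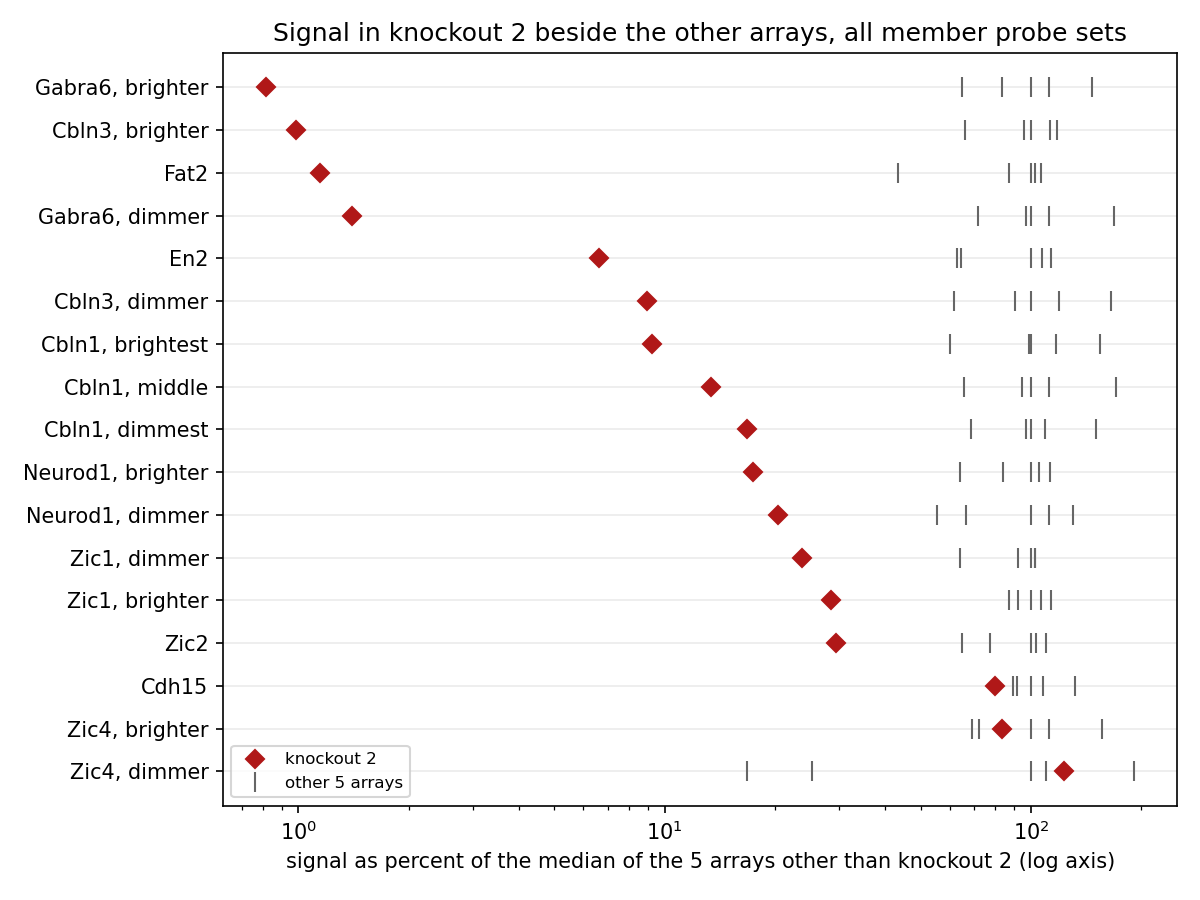
Signal as percent of the median of the 5 arrays other than knockout 2 (log axis), with diamonds for knockout 2 and ticks for the other 5 arrays, for all 17 probe sets. The shares in knockout 2 run from 0.818% for the brighter Gabra6 probe set to 123% for the dimmer Zic4 probe set, with En2, Cbln1, Neurod1, Zic1 and Zic2 between.

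The order of the shares left in knockout 2 ran from Gabra6, Cbln3 and Fat2, through En2, Cbln1 and Neurod1, to Zic1 and Zic2, and ended with Cdh15 and Zic4. Neighbours in this order often cannot be separated, since the probe sets of Cbln1 alone spread from 9.23% to 16.8% and those of Cbln3 from 0.985% to 8.96%. The order is a description of a single mouse. How far each gene is transcribed outside the cerebellum was not tested.

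Knockout 3 was the lowest of the other 5 arrays on 12 of the 17 probe sets, against 16.7% of all probe sets. Its readings were 0.60 lower on the log2 scale than the median of the other arrays (the median over the 17), against 0.042 to 0.25 higher on knockouts 1 and 4 and the wild types. Of the 5 pituitary markers, Gh, Prl and Pomc read 5930, 3690 and 1413 in knockout 3, against at most 381.4, 320.5 and 567.7 on the other arrays. Lhb, at 155.2, and Pitx1, at 28.4, were not highest there. Their summed signal was 11216 in knockout 3 and at most 1332 on any other array. The part of pituitary tissue in the lower readings was not tested.

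Between knockout and wild type, limma called 0 of the 17 probe sets at an adjusted p of 0.05, in a test on log2 signals that borrows information on the spread across all probe sets. Of all 45037 probe sets 0 were called as well, or 0%, and 0 of the 17 reached an unadjusted p below 0.05, against 3046 probe sets or 6.76%. The count among the 17 was 3 under median centring, against 3943 over all, and 3 without knockout 1, against 2655 over all. In both fits these were the brightest and middle Cbln1 and the En2 probe sets. Without knockout 4 the count was 1, the middle Cbln1 probe set, against 3026 over all. The adjusted p of the 17 ran from 0.743 to 0.968. The log2 fold change was below 0 on 16 of the 17, against 39.7% of all probe sets, with a median of -0.99 against 0.078 over all. Gabra6 had the largest difference, -2.15 ± 1.44 (log2 fold change and its standard error) on the brighter probe set, where the 95% interval ran from -5.37 to 1.06 (limma adjusted p = 0.779, exact permutation p = 0.4, 2-sided). With 15 possible splits the exact test cannot go below 0.0667.

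Cbln1 had log2 fold changes of -1.44, -1.34 and -0.99 from its brightest to its dimmest probe set, with standard errors of 0.76, 0.65 and 0.60. Cbln3 had -1.69 and -1.23, Fat2 -1.34 and En2 -1.34. The standard errors of these 4 values were 1.40, 0.72, 1.08 and 0.77, so that all of their intervals included 0. Zic1 had -0.38 and -0.71, Zic2 -0.31, Zic4 -0.20 and -0.70, Neurod1 -0.65 and -0.15, and Cdh15 0.065. The sign of the Cdh15 value turned under quantile normalisation and median centring. The smallest exact permutation p of the 17 was 0.267.

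Most of this difference came with knockout 2. Without it the median log2 fold change of the 17 was -0.26, against 0.087 over all probe sets, and 13 were below 0, against 39% of all. The brighter Gabra6 probe set then averaged 8851 ± 1884 (SD, n = 3) in the knockouts and 13865 ± 2610 (SD, n = 2) in the wild types, a log2 fold change of -0.65 ± 0.21 (standard error). For En2 the averages were 1749 ± 486.8 (SD, n = 3) in the knockouts and 2548 ± 99.9 (SD, n = 2) in the wild types, with a log2 fold change of -0.56. The brightest Cbln1 probe set averaged 5474 ± 1435 (SD, n = 3) in the knockouts and 8592 ± 1695 (SD, n = 2) in the wild types, with a log2 fold change of -0.67, and the middle one had -0.69. On these 4 probe sets knockouts 1, 3 and 4 all read below both wild types, wild type 2 included.

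Without knockout 2 these 4 probe sets, in 3 genes, were the members with an unadjusted p below 0.05, from 0.0126 to 0.0239 in limma. All were lower in the knockout, where 1.47% of all probe sets were lower at that threshold. Knockout and wild type did not overlap on 4 of 17, against 6.7% of all probe sets in that direction, and with all arrays on the same 4, against 4.81%. The adjusted p of each was 0.814, the smallest over the whole table in that fit, so none passed. For the brighter Cbln3, brighter Neurod1, brighter Zic1 and Zic2 probe sets the values without knockout 2 were -0.23, -0.067, 0.075 and 0.038. Their 95% confidence intervals ran from -0.74 to 0.28, from -0.61 to 0.48, from -0.37 to 0.52 and from -0.60 to 0.68, which leaves room for changes in either direction.

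**Figure D3:**
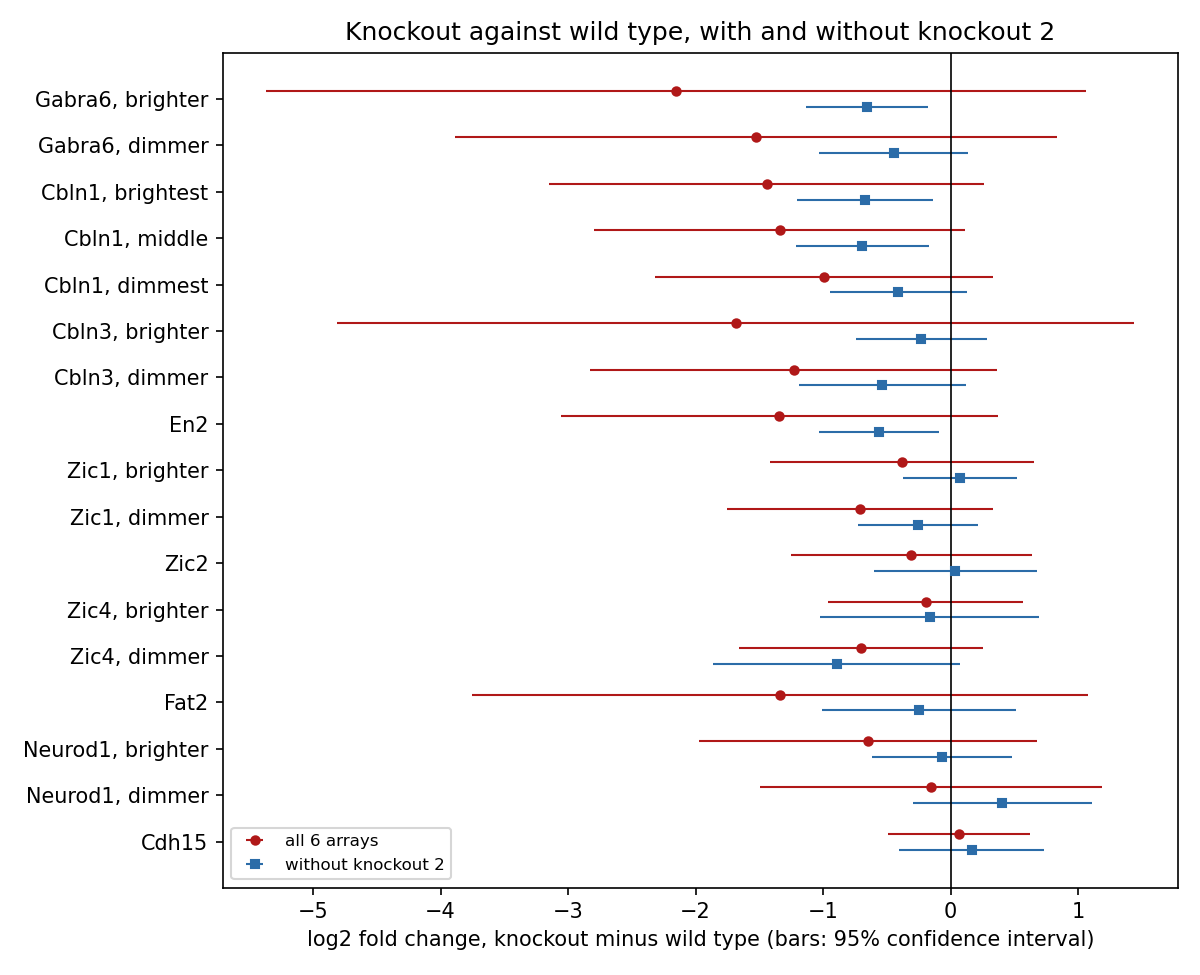
Log2 fold change of knockout minus wild type for the 17 probe sets with 95% confidence intervals, from all 6 arrays (circles) and without knockout 2 (squares). The intervals from all arrays include 0 on every probe set, and without knockout 2 those of the brighter Gabra6, the brightest and middle Cbln1 and the En2 probe sets lie below 0 before adjustment.

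Genes with a profile most like that of Gabra6 were sought among 13290 other genes by the root mean square difference from the brighter Gabra6 probe set, over the 6 arrays, in log2 values centred on each gene's mean. Pcp2, Ppp1r17 and Slc1a6, all known from Purkinje cells, came closest, at 0.48, 0.66 and 0.97. They were followed by Cnpy1, Crtam, Car8, Slc6a3, Slc6a5, Nrk and Dao, at 0.99 to 1.27. Crtam is an immune receptor gene, Slc6a3 the dopamine transporter of midbrain neurons and Slc6a5 the glycine transporter of hindbrain and spinal cord. Among the members themselves the brighter Cbln3 probe set lay at 0.31 from Gabra6, Fat2 at 0.74 and En2 at 1.12, while Cdh15 lay at 2.25 and Zic4 at 2.28 and 2.55, near the median of all compared genes, 2.37. Without knockout 2, over 5 arrays, 0 of these 10 genes stayed among the 10 closest, and Pcp2 moved to rank 7654 and Ppp1r17 to rank 101. The closest were then Nek9 and St6galnac6, at 0.057 and 0.079, with the median of all compared genes at 0.43. Of the members, the middle and brightest Cbln1 probe sets then lay at 0.095 and 0.12, the brighter Cbln3 probe set at 0.31 and Fat2 at 0.34.

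Other genes of the granule lineage differed less in knockout 2. Of the 13 measured among 14 listed, knockout 2 was the lowest array on 8 and over 2-fold below the others on 0. Calb2, the calcium-binding calretinin, read 7424, 2605, 4722 and 6808 in the knockouts, against 6047 and 8311 in the wild types, the widest gap of that list. Between knockout and wild type 11 were lower and 2 higher. Limma called 0 of them after adjustment, and 2 lay below 0.05 before it, against 6.76% of all probe sets. Pax6, a paired box factor of granule cells, read 825.4, 496.5, 673.2 and 853.7 in the knockouts, against 1013 and 1088 in the wild types (log2 fold change -0.56, limma adjusted p = 0.738). Without knockout 2 its log2 fold change was -0.41, with an unadjusted limma p of 0.055, and Atoh1 alone stayed below 0.05, against 6.04% of all probe sets. Atoh1, the factor that starts the granule lineage and is normally silent in adults, was dim, with at most 236.6 on any array and a log2 fold change of 1.09, also at an adjusted p of 0.738.

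The partners and relatives of the members did not share the gap. Of the cerebellin family and its partners, 5 of 7 were measured, and knockout 2 was the lowest array on 0 of them. Cbln2 and Cbln4, the cerebellins of forebrain, read 1372 and 1191 in knockout 2, against 980.6 to 1549 and 1091 to 1457 on the other arrays. Gabrd and Gabrb2, receptor subunits that assemble with α6 and with other α subunits, read 2264 and 15472 in knockout 2, against 2192 to 3478 and 9144 to 15538 on the others. Of the other Fat cadherins Fat1 was lowest in knockout 2, at 1421 against 1812 to 3136, and Fat3 highest there, at 3820 against 2417 to 3056. Between knockout and wild type 0 of these genes passed in limma, and Fat1, at a log2 fold change of -0.50 with an adjusted p of 0.738, was the only 1 with an unadjusted p below 0.05. Without knockout 2 it had a log2 fold change of -0.35 and an unadjusted limma p of 0.085, which left 0 of these genes below 0.05.

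Of 12 measured among 14 listed patterning genes, including Zic5, En1 and Lmx1b, knockout 2 was the lowest on 4. Zic5, which neighbours Zic2, read 1126, 374.3, 538.9 and 790.4 in the knockouts, against 938.1 and 738.1 in the wild types. Lmx1b, a factor of midbrain and hindbrain neurons, read 259.7, 12.5, 142.4 and 329.7 in the knockouts, against 200 and 184 in the wild types. En1, the relative of En2, was dim throughout, at 38.2 to 131. Of these genes 6 were lower and 6 higher in the knockout and limma called 0, with 0 below 0.05 before adjustment, and the same counts were found without knockout 2.

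Markers of other cells and regions showed which signals moved with the members in knockout 2. Of 10 measured Purkinje genes it was the lowest on 9 and over 4-fold below the others on 5, among them Car8 at 1058 against 9323 to 16479. Their summed signal was 77074 in knockout 2, against 116171 to 137478 in the other knockouts and 120141 and 146506 in the wild types, and Pcp4, a bright member that is also striatal, made up much of what was left. Of 4 Bergmann glia genes knockout 2 was the lowest on 3, but over 2-fold below the others on Gdf10 alone, at 313.6 against 955.5 to 1664. Gria4, Hopx and Slc1a3 kept 61.9%, 72.4% and 79.8% of the median of the others, and their sum with Gdf10 was 17013 in knockout 2, against 21485 to 25762 on the other arrays. Of 6 measured markers of cortex and hippocampus knockout 2 was the highest on 4, Camk2a, Neurod6, Slc17a7 and Tbr1, while Prox1 and Dsp lay within the range of the others. Camk2a, at 22314 against 13257 to 16171, made up most of their sum. That sum was 33930 in knockout 2, against 21360 to 25119 in the other knockouts and 23216 and 22492 in the wild types. Of 4 measured striatal markers among 6 listed, knockout 2 was the highest on 3, while Drd2, at 1006, lay within 712.4 to 1117 on the others. The striatal sum was 26773, against 14325 to 23396 in the other knockouts and 20230 and 18632 in the wild types. Penk, at 17747 in knockout 2 against 9159 to 15383 on the others, made up most of it.

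The 10 hindbrain and spinal cord markers summed to 1713 and 1331 in knockouts 1 and 2, against 4096 and 2905 in knockouts 3 and 4 and 3132 and 4062 in the wild types, but they did not move as a group. Slc6a5 read 353.8, 22.9, 997.6 and 802.8 in the knockouts, against 872 and 999.8 in the wild types. Hoxb5, a gene of the caudal hindbrain and spinal cord, read 27.3, 13, 403.8 and 211.6 in the knockouts, against 377.8 and 353.1 in the wild types. Hoxb3 was likewise lowest in knockouts 1 and 2, at 18.5 and 15.2, whereas Hoxb2 and Hoxc4 were low in knockout 4 too, at 32.9 and 25.4. Hoxa5 read 818.9 and 821 in knockouts 1 and 2 on its brightest probe set, against 817.4 and 902.7 in the wild types. Its probe sets disagreed, since a dimmer one read 19.2 in knockout 2, against 239.1 to 659.7 on the other arrays. Meningeal markers, which bear on Zic1, summed to 7938 in knockout 2, within the range of the other arrays from 6199 to 9502. The 6 markers did not move together. Knockout 2 was highest on 2, Col1a1 at 675.1 against 250.4 to 301.9 and Col1a2 at 1628 against 758.7 to 1564. It was lowest on 1, Slc6a13, at 360.4 against 374.4 to 606.9. No marker on any of these lists was at 0. The part of tissue content, the presence of cerebellum included, in the values of knockout 2 was not tested.

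**Figure D4:**
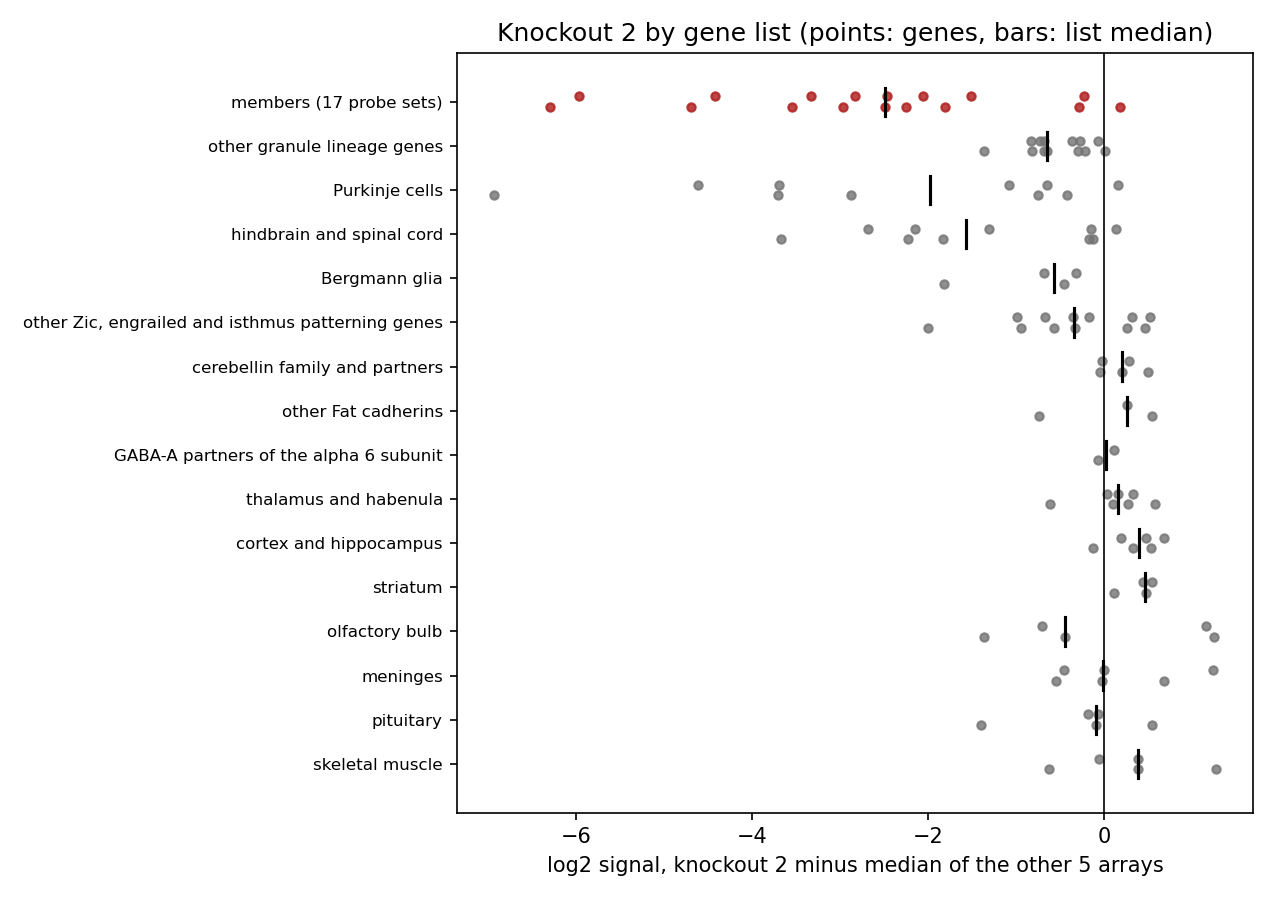
Log2 signal of knockout 2 minus the median of the other 5 arrays, each point a gene (a probe set for the members, in red), with a bar at the median of each list. The members have a median of -2.49 and the Purkinje genes -1.98, while cortex and hippocampus lie at 0.40 and striatum at 0.46.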

How the data were processed

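Brain RNA of 4 knockout and 2 wild-type mice was measured on Affymetrix Mouse 430 2.0 arrays, per the labels. The deposited table holds 1 linear signal intensity per probe set and array. It was made with GCOS 1.3, per the submitters' processing notes; the sources used here do not say how signals were summarised, called or scaled. The middle 96% of the deposited intensity values had an equal average on every array. Of 45101 probe sets, 64 Affymetrix controls were left out. Symbols came from the platform annotation, where 34945 probe sets had 1 symbol, and matched the GRCm38.p6 gene table for all listed genes.

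Signals were taken to log2 after adding 49.6, the 20th percentile, which understates changes of dim genes. Knockout minus wild type was fitted on all 45037 probe sets, without a dim filter, with limma 3.58.1 in R 4.3.3 (lmFit, then eBayes with trend), with 4 residual and 5.91 prior degrees of freedom and Benjamini-Hochberg adjustment at 0.05, after a test on simulated data. Exact permutation tests ran over the 15 splits. Per array, each value was set against the other arrays as a description. The number of arrays limits the precision. Sequences are RefSeq windows of GRCm38.p6. Plots used Python 3.11.15.

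All members were named, with the brightest probe set in full. From the other lists, genes with an unadjusted p below 0.05 or with an array over 4-fold below the rest were eligible, up to 4 a list, and the 10 genes most like Gabra6 were taken. Further list genes (Calb2, Car8, Cbln2, Cbln4, Gabrd, Gabrb2, Fat3, Zic5, Lmx1b, En1, Gdf10, Gria4, Hopx, Slc1a3, Pcp4, Hoxb2, Hoxb3, Hoxb5, Hoxa5, Col1a1, Col1a2, Slc6a13, Camk2a, Neurod6, Slc17a7, Tbr1, Prox1, Dsp, Gh, Prl, Pomc, Acta1, Ckm and Myod1) were named after their values were seen. The same holds for Penk and Drd2. Members and lists were chosen with earlier results of these data known. Alternatives were a larger and a smaller offset, a 40% dim filter, quantile normalisation, median centring, no trend, and leaving out each array; likeness to Gabra6 without knockout 2 was added after seeing the data.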

Additional observations from a re-analysis of the deposited data

Results flagged for a closer look

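Among the 4 knockout arrays, knockout 2 lay so far below the rest, on the log2 scale, that the gap to the next array exceeded the 95% limit of Dixon's test for a group of 4. The gap was 0.901 of the range for the brighter and 0.865 for the dimmer Gabra6 probe set, 0.875 for the brighter Cbln3 probe set and 0.850 for the brighter Zic1 probe set. These probe sets share the same array. The members were chosen with earlier results of these data known, and the share of all probe sets beyond this limit was not computed. The gaps are therefore a description and carry no test. En2, with 0.816, the brightest and middle Cbln1 probe sets, with 0.783 and 0.787, and Fat2, with 0.740, fell short of the limit. The ratio also depends on the spread of the other knockouts, so it does not rank the gaps by size.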

How the results depend on the processing

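The number of members with an adjusted p below 0.05 in limma was 0 under each alternative, and their median log2 fold change ran from -1.30 to -0.26 with any 1 array left out, -0.26 being without knockout 2. Over all probe sets the number ran from 0 to 171 with any 1 array left out, 171 being without wild type 2; in the fits that left out a wild type, the lone one left was assumed to vary like the knockouts. Members with an unadjusted p below 0.05 in limma numbered 0 to 4 over the alternatives that kept both wild types. The 4 were found without knockout 2, where 2720 of all 45037 probe sets lay below 0.05. Of 203 recomputed member fold changes, 196 kept their direction and 7 turned. Cdh15 became -0.021 under quantile normalisation, -0.15 under median centring and -0.055 without knockout 4. Without knockout 2 the brighter Zic1 probe set became 0.075, Zic2 0.038 and the dimmer Neurod1 probe set 0.41, and the last was 0.27 without wild type 2. With any 1 array left out these 4 ran from -0.055 to 0.17 for Cdh15, from -0.59 to 0.075 for Zic1, from -0.51 to 0.038 for Zic2 and from -0.57 to 0.41 for Neurod1. The cause was not tested. Median centring moved the median of all probe sets to -0.14, against 0.078 as deposited, and that of the members to -1.21. Of 68 recomputed levels of knockout 2, 57 moved by less than the spread of the other arrays; the other 11, with a larger or smaller offset, kept their sign, as for the brighter Gabra6 probe set at -5.25 and -6.74 against -6.29. Readings near background on knockout 2, as for Gabra6, Cbln3 and Fat2, have a share that the background limits. No paired analysis was possible because the labels give the mice no shared numbers.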

Other observations

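Of the 32 probe sets that lay over 4-fold below the other arrays in knockout 2, several belonged to genes of neither the granule cell nor the Purkinje lists. Slc6a3, the dopamine transporter, read 23.6 in knockout 2 and 472.1 to 1142 on the other arrays. Dao, the D-amino acid oxidase known from cerebellar and hindbrain astrocytes, read 81.6 in knockout 2 and 842.2 to 1037 on the others. Il16, whose neuronal form is known from granule cells, read 55.3 in knockout 2 and 425.5 to 744.6 on the others. Crtam read 90.6 in knockout 2 and 1322 to 2219 on the others, and Cnpy1, on its probe set with the wider gap, read 6.6 in knockout 2 and 474.7 to 1041 on the others. These genes were picked for their low reading in knockout 2, and the values are given with no test.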
